A study of Macaca mulatta and Mus musculus and Rattus norvegicus with 12 samples.

Results

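The genes described here are 7 signals that set osteoclast number and survival: TNFSF11 (RANKL), TNFRSF11A (RANK), TNFRSF11B (osteoprotegerin, OPG), TNFSF10 (TRAIL), CSF1 (M-CSF), CSF1R and IL34. They were taken from the count tables by gene symbol, and the set was chosen with earlier results of these data known. They were compared between calvaria, the bones of the skull roof, and tibia, the shin bone. All 7 had a row among 38599 symbols in mouse and among 35259 in rat, and 5 had a row among 28641 in rhesus macaque. The 12 libraries were made from poly(A)+ RNA of pulverised bone enriched for osteocytes, after removal of the periosteum, a short collagenase digestion and, in rodent tibia, a spin to remove marrow. All animals were female per the study's methods, and no label names a treatment. The mouse libraries came from C57BL6 animals aged 4 months, with M4 and M8 from calvaria and M5 and M7 from tibia, with 3 animals in each pool. The rat libraries came from Wistar animals aged 6 months, with R1 from calvaria and R3 from tibia, 2 animals in each pool, so there is no replicate in rat. The macaque libraries each came from 1 animal, with G1, G3 and T1 from calvaria and G2, G4 and T2 from tibia. Their age is 4 to 6 months in the labels and the same numbers of years in the study's methods, which could not be reconciled here. Per those methods, calvaria and tibia were paired, each pair from the same macaque or the same pool of rodents. The pairs are not named, and the main fits did not use them. The bone held all its embedded and remaining cells, so fewer cells of a type and less RNA per cell cannot be told apart.

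RANKL is a membrane-bound or shed ligand that binds RANK on osteoclast precursors and drives them to become bone-resorbing osteoclasts. OPG is a secreted decoy receptor that binds RANKL and keeps it from RANK, and it also binds TRAIL, a ligand that triggers cell death through death receptors. M-CSF and IL-34 are alternative ligands of CSF1R, the receptor that keeps precursors and macrophages alive. Osteocytes are known as a main source of RANKL in adult bone and also make OPG and M-CSF.

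In mouse, OPG and TRAIL were lower in calvaria than in tibia, and RANKL, RANK, M-CSF, CSF1R and IL-34 did not pass the test. In macaque, RANKL, OPG and TRAIL were lower in calvaria, and CSF1R did not pass. In rat, OPG and TRAIL were lower in calvaria by more than the threshold on the log2 ratio, with 1 library a site and no test. A gene was called where edgeR's quasi-likelihood test gave a false discovery rate under 0.2 and the fold change exceeded 1.1. In mouse 2 of 7 tested members were called higher in tibia, against 1.57% of the 22339 symbols tested (351 symbols), and none was called higher in calvaria, where the share of all symbols was 0.712%. The mouse share in either direction was 2.28% (510 symbols). Both mouse calls were lost, with 0 of 7 members and 14 symbols called, when only symbols with reads in every library were tested. That is the filter of the study's methods. With it and another edgeR release, the study did call TNFSF10 higher in mouse tibia. It called more mouse genes than the 14 symbols called here with that filter, and fewer than the 510 called without it. Both calls were also lost under edgeR's own expression filter, with 29 symbols called. TNFRSF11B and TNFSF10 had an unadjusted p under 0.05 under each of these filters. Without each mouse library in turn, between 1 and 5 members and between 220 and 7470 symbols were called. Each such mouse fit leaves a lone library at a site, so its calls rest on the spread at the other site. In macaque 3 of 4 tested members were called higher in tibia, against 9.43% of the 18894 symbols tested (1781 symbols). None was called higher in calvaria, against 10.3%. The macaque share in either direction was 19.7% (3724 symbols, 1943 higher in calvaria), and with library size alone it was 4499 symbols, 1381 of them higher in calvaria, while the median over all symbols moved from 0.03 to -0.18. In rat 2 of 6 members with reads lay past a log2 ratio of 2 towards tibia, against 8.14% of 19234 symbols, and none towards calvaria, against 1.55% (9.69% in either direction). The median log2 difference, calvaria over tibia, over the members was -0.16 in mouse, -0.97 in macaque and -1.15 in rat, beside 0.05, 0.03 and -0.29 over all symbols tested.

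**Figure D1:**
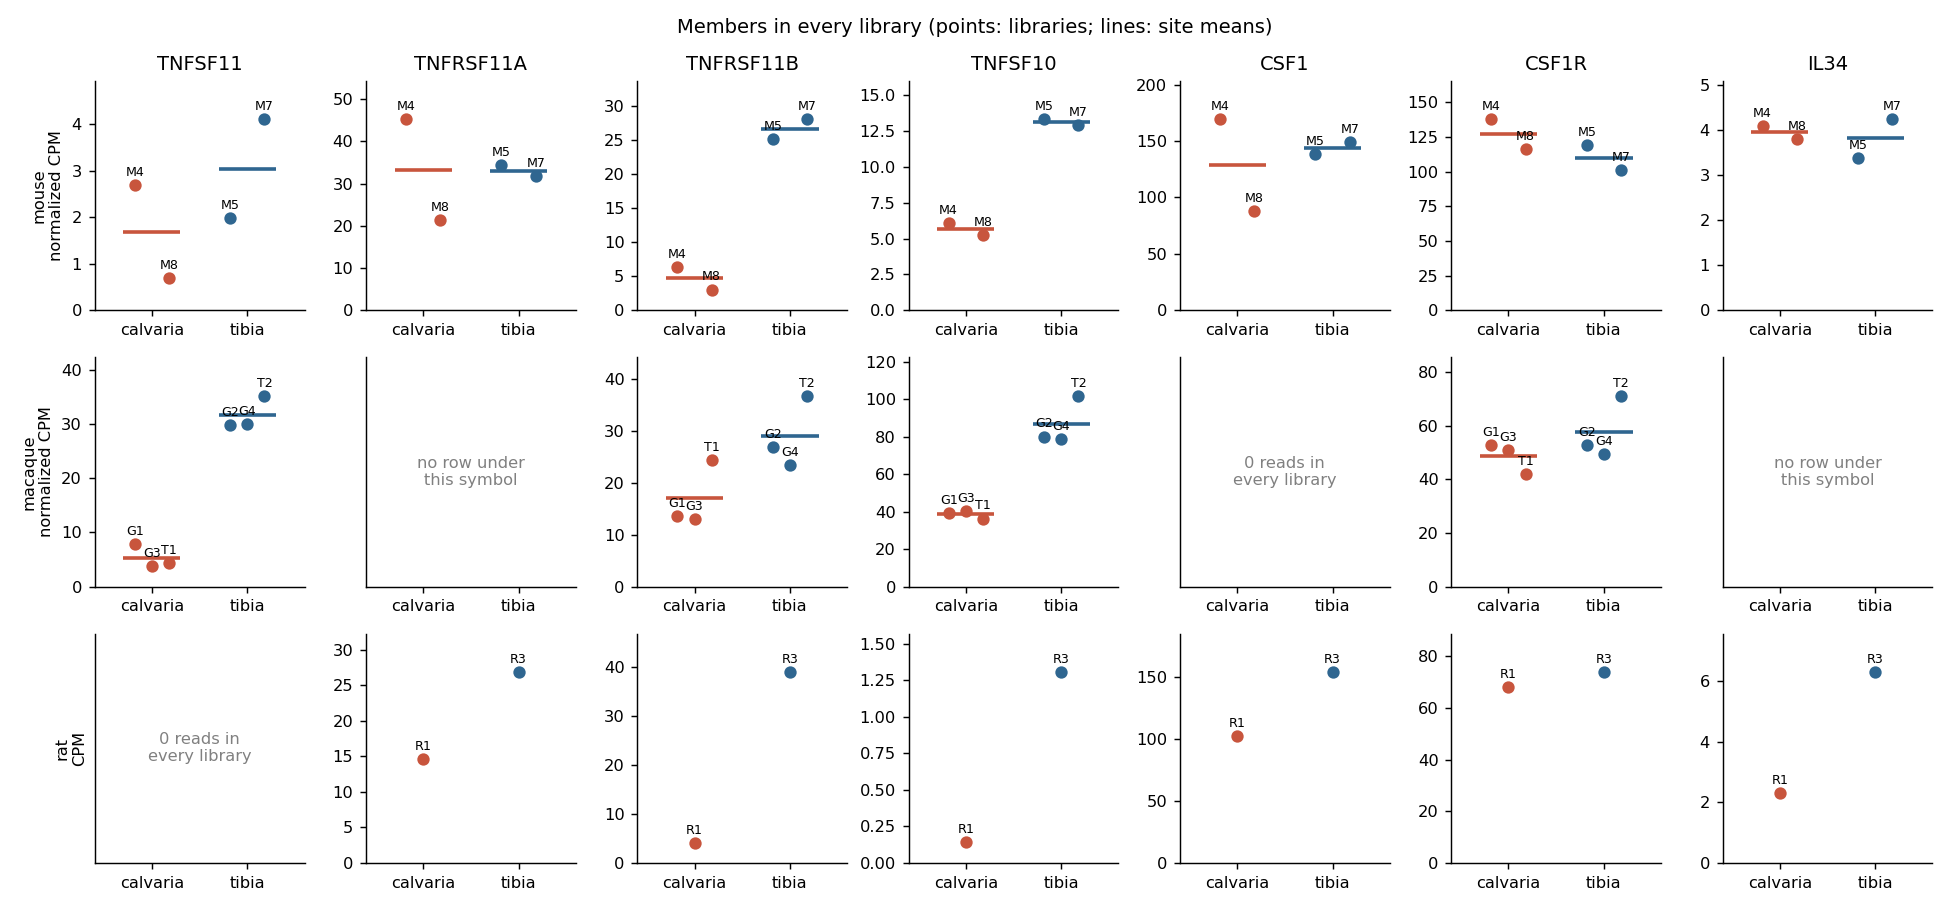
Each panel plots 1 gene in 1 species, with the site on the horizontal axis and the level on the vertical axis, as normalized CPM (reads scaled by TMM to a common library size) in mouse and macaque and as CPM in rat. Points are libraries and lines are site means. Mouse TNFRSF11B and TNFSF10 and macaque TNFSF11 and TNFSF10 do not overlap between the sites, while mouse TNFSF11 does. Tibia lay wholly above calvaria for 18.4% of all mouse symbols and 12.1% of all macaque symbols. Rat has 1 library a site, so overlap cannot be judged there.

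Reads on named genes numbered 13934813 to 16826535 per mouse library, 12233256 to 14255423 per rat library and 7951585 to 10342459 per macaque library. Mouse and rat libraries were run on 1 lane and macaque libraries on another, so species cannot be told apart from lane, genome or annotation. The osteocyte markers MEPE, DMP1 and PHEX were detected in every species, and SOST, which encodes sclerostin, was near 0 in the rat table, at 0.351 CPM in calvaria and 1.23 CPM in tibia.

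TNFSF11 encodes RANKL, the ligand of the pathway, and lies on chr14:78277445-78308043 of the mouse genome (GRCm38), minus strand, with 5 exons. In mouse its level was 2.69 normalized CPM in M4 and 0.686 in M8 of calvaria (42 and 9 reads), and 1.98 in M5 and 4.10 in M7 of tibia (35 and 60 reads). M4 lay above M5, so the sites overlapped, and the spread within calvaria was wider than the difference between the site means. The mean was 1.69 ± 1.42 (SD, n = 2) in calvaria and 3.04 ± 1.50 (SD, n = 2) in tibia. The log2 difference was -0.83 with a standard error (SE) of 0.69, and edgeR's quasi-likelihood test gave an adjusted p of 0.874. Without M4, which left M8 as the lone calvaria library, the mouse difference was -2.15. Without M8 it was -0.17, without M5 -1.27 and without M7 -0.22, so single libraries of either site moved this value by over 1.5 times.

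In macaque tibia the RANKL gene was counted with more reads than in mouse tibia, while the calvaria read counts of the species overlapped. Calvaria held 7.84 normalized CPM in G1, 3.76 in G3 and 4.36 in T1, from 65, 30 and 36 reads. Tibia held 29.9 normalized CPM in both G2 and G4 and 35.2 in T2, from 273, 262 and 363 reads. All 3 tibia libraries lay above all 3 calvaria libraries, as they did for 12.1% of all symbols. The mean was 5.32 ± 2.20 (SD, n = 3) in calvaria and 31.7 ± 3.09 (SD, n = 3) in tibia, a 5.93-fold difference. TNFSF11 was called in macaque with a log2 difference of -2.57, an SE of 0.29 and an adjusted p of 2.32e-08 by the quasi-likelihood test. Leaving out each macaque library gave log2 differences between -2.96 and -2.37, all called. Of the macaque osteoclast markers, 3 of 10 (ACP5, CTSK and MMP9) were called higher in calvaria, beside 10.3% of all symbols, and none higher in tibia. By the quasi-likelihood test 4 had an unadjusted p under 0.05. Their sum was 1350 to 1669 normalized CPM in calvaria and 447 to 1624 in tibia, which overlapped. OSCAR and DCSTAMP had no row there, and the part of these cells in the RANKL value was not tested.

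In rat the TNFSF11 row held 0 reads in R1 and in R3. A count of 0 allows up to 0.210 CPM in R1 and 0.245 CPM in R3 (3 reads of the library, counting error only). The rat row covers 957 bases of exon, against 2235 in mouse and 2196 in macaque, so reads outside that model were not counted. EEF1A1, which every cell uses, had only 21 and 22 reads in the rat libraries, so a row of this table can hold far fewer reads than its gene gave, and the limit holds for counted reads only. No fold is given where both libraries are at 0.

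TNFRSF11B encodes OPG, the decoy receptor, and lies on chr15:54250619-54278484 of GRCm38, minus strand, with 5 exons. Mouse M4 and M8 (calvaria) held 6.40 and 3.05 normalized CPM, from 100 and 40 reads. In mouse tibia it stood at 25.2 in M5 and 28.0 in M7, from 446 and 410 reads. Both tibia libraries lay above both calvaria libraries, as was so for 18.4% of all mouse symbols. The mean was 4.72 ± 2.37 (SD, n = 2) in calvaria and 26.6 ± 2.01 (SD, n = 2) in tibia, a 5.60-fold difference. The log2 difference was -2.49 with an SE of 0.38 and an adjusted p of 0.00403 by the quasi-likelihood test. The difference lay between -3.15 and -2.06 without each library in turn, which left a lone library at a site. The call was lost where fewer symbols were tested, with adjusted p of 0.293 under edgeR's own expression filter, 0.305 with symbols that had reads in every library, and 0.274 with symbols that had reads in all 3 species.

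In macaque the OPG gene differed less between the sites. Calvaria held 13.6 normalized CPM in G1, 13.0 in G3 and 24.4 in T1, from 113, 104 and 201 reads. Tibia held 26.8 in G2, 23.4 in G4 and 36.8 in T2, from 245, 205 and 379 reads. T1 lay just above G4, so the sites overlapped, while among the G libraries and within the T libraries tibia was higher. The mean was 17.0 ± 6.37 (SD, n = 3) in calvaria and 29.0 ± 6.96 (SD, n = 3) in tibia. TNFRSF11B was called in macaque with a log2 difference of -0.77, an SE of 0.26 and an adjusted p of 0.0541. The call was lost without G1 (log2 difference -0.63, adjusted p 0.229) and without G3 (-0.61, adjusted p 0.353), and the T libraries moved the value from -1.12 without T1 to -0.55 without T2. With the letter of the library name as a term, the difference was -0.80 with an adjusted p of 0.00401.

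In rat, TNFRSF11B stood at 4.00 CPM in R1 and 39.1 CPM in R3, from 57 and 478 reads. Calvaria was lower, with a log2 ratio of -3.27 after 1 read was added to each count, and the ratio stayed past the threshold of 2 in all 4 other settings tried. The osteocyte markers moved the same way as OPG in the rodents. Their summed level was between 1084 and 1959 normalized CPM in mouse calvaria and between 7755 and 10546 in mouse tibia, with 4 of 7 called higher in tibia. In rat the sum was 571 CPM in calvaria and 7715 in tibia, with 5 of 6 markers with reads past the threshold. In macaque it was between 4917 and 5779 in calvaria and between 7777 and 17530 in tibia, with 2 of 6 called higher in tibia. The shares of all symbols higher in tibia were 1.57% in mouse, 8.14% in rat and 9.43% in macaque. FGF23 was listed at 0 in both rat libraries, and FAM20C had no row in macaque. Their part in the differences of OPG, RANKL and TRAIL was not tested.

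The ratio of RANKL to OPG was taken within each library as reads per kilobase of exon, so that depth and scaling cancel. In mouse calvaria it was 0.530 in M4, with an exact binomial 95% interval from 0.360 to 0.767, and 0.284 in M8 (0.121 to 0.594). In mouse tibia it was 0.0989 in M5 (0.0680 to 0.140) and 0.185 in M7 (0.138 to 0.242). Both calvaria libraries lay above both tibia libraries, although the interval of M8 reached below the value of M7. The intervals cover counting error only. The difference of the site means was 1.54 on the log2 scale, calvaria minus tibia, and the exact permutation test (2-sided) gave p = 0.33, the smallest that 2 against 2 can give.

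In macaque the ratio ran the other way. Calvaria had 0.629 in G1 (0.456 to 0.861), 0.315 in G3 (0.203 to 0.477) and 0.196 in T1 (0.133 to 0.280). Tibia had 1.22 in G2 (1.02 to 1.45), 1.40 in G4 (1.16 to 1.69) and 1.05 in T2 (0.904 to 1.21). Every tibia library lay above every calvaria library, and RANKL reads per kilobase were above those of OPG in each tibia library, the interval of T2 reaching below 1. The difference of the site means was -1.83 on the log2 scale, and the exact permutation test (2-sided) gave p = 0.10, the smallest that 3 against 3 can give. Leaving out each library kept the sign in both species, with mouse differences of 1.096 to 1.99 and macaque differences of -2.27 to -1.43. Summed over the species, with labels permuted within each, the difference was -0.29 with an exact permutation p of 0.85. These tests shuffle libraries freely within a species, and shuffling within the pairs that the study's methods state would leave fewer arrangements and a larger smallest p. In rat the ratio was 0 in both libraries, and 3 reads of TNFSF11 would have given 0.153 in R1 and 0.0183 in R3.

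**Figure D2:**
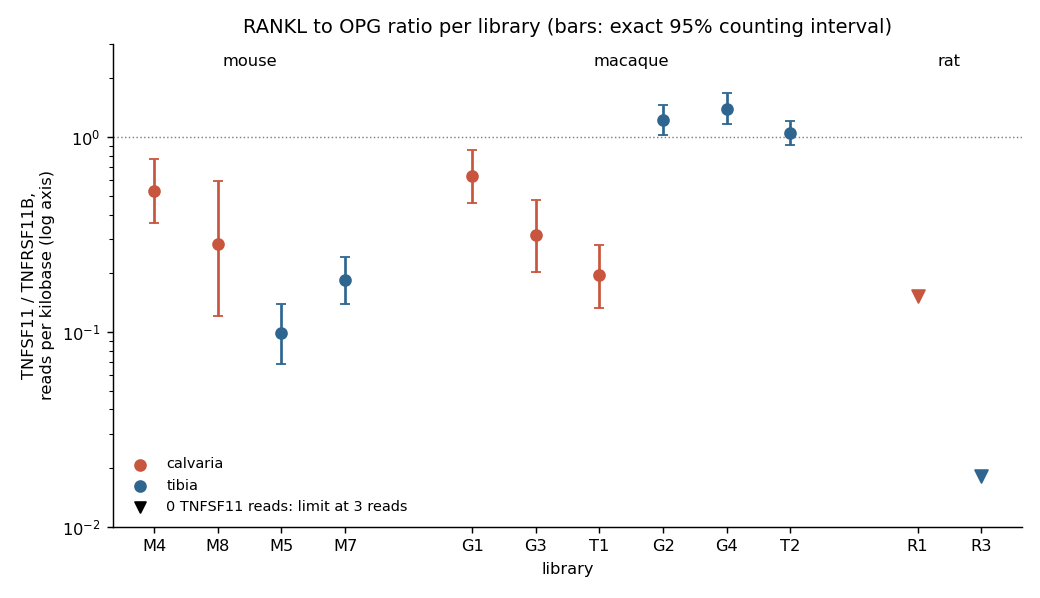
The ratio of TNFSF11 to TNFRSF11B reads per kilobase of exon is plotted on a log axis for each library, coloured by site, with exact binomial 95% intervals as bars. Triangles mark the ratio that 3 TNFSF11 reads would give in rat. Mouse calvaria (0.284 and 0.530) lies above mouse tibia (0.0989 and 0.185), whereas macaque calvaria (0.196 to 0.629) lies below macaque tibia (1.05 to 1.40).

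The site difference of each gene was then compared between mouse and macaque with a species by site interaction, fitted over 11564 shared symbols, of which 4.89% were called. TNFRSF11B was called, with a log2 difference of 1.73 (macaque minus mouse, SE 0.52) and an adjusted p of 0.163 by the quasi-likelihood test, so the tibia excess of OPG was smaller in macaque. This call was kept without M4 or without T2 and lost without each of the other 8 libraries, where the adjusted p was between 0.204 and 0.478. TNFSF11 had an interaction of -1.74 (SE 0.73), with an adjusted p of 0.316, and was not called. Without M8, which left M4 as the lone mouse calvaria library, its interaction was -2.41. TNFSF10 and CSF1R had interactions of 0.06 (SE 0.28) and -0.44 (SE 0.30), with adjusted p of 0.943 and 0.549.

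TNFSF10 encodes TRAIL, which binds death receptors and is also bound by OPG, and lies on chr3:27317028-27342427 of GRCm38, plus strand. The study chose this gene among its shared differences on these same libraries, so its direction here is not independent evidence. In mouse it stood at 6.08 normalized CPM in M4 and 5.26 in M8 of calvaria, and at 13.3 in M5 and 12.9 in M7 of tibia, from 95, 69, 236 and 189 reads. Both tibia libraries lay above both calvaria libraries, as was so for 18.4% of all mouse symbols, and the libraries of a site lay close together. The mean was 5.67 ± 0.580 (SD, n = 2) in calvaria and 13.1 ± 0.289 (SD, n = 2) in tibia, a 2.31-fold difference. The log2 difference was -1.21 with an SE of 0.35 and an adjusted p of 0.182. This call lay close to the threshold and was lost with a block for assumed pairs (adjusted p of 0.413 and 0.315 under both pairings), with the exonic length offset (0.205), with the smaller sets of symbols (0.415 to 0.487), and without M5 or without M7.

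In macaque the TRAIL gene was also lower in calvaria. Calvaria held 39.6 normalized CPM in G1, 40.1 in G3 and 36.4 in T1, from 328, 320 and 300 reads. Tibia held 80.1 in G2, 78.6 in G4 and 102 in T2, from 733, 689 and 1051 reads. Every tibia library lay above every calvaria library, as was so for 12.1% of all macaque symbols, and the calvaria libraries lay within a narrow range. The mean was 38.7 ± 2.04 (SD, n = 3) in calvaria and 86.9 ± 13.1 (SD, n = 3) in tibia, a 2.25-fold difference. TNFSF10 was called with a log2 difference of -1.17, an SE of 0.20 and an adjusted p of 3.31e-05. In rat it was counted with 2 reads in R1 and 16 in R3 (0.140 and 1.31 CPM), a log2 ratio of -2.72 with 1 read added and of -1.81, within the threshold, with 5 reads added. The rat row covers only 862 bases of exon, against 4944 in mouse and 1777 in macaque.

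TRAIL was also set against OPG within each library, a ratio chosen after the values of both genes were seen and given with no test. In mouse, TNFSF10 reads per kilobase over those of TNFRSF11B were 0.541 in M4 and 0.983 in M8 of calvaria, and 0.302 in M5 and 0.263 in M7 of tibia. Calvaria was higher, with a log2 difference of site means of 1.37. In macaque the ratio was 3.92 in G1, 4.16 in G3 and 2.02 in T1 of calvaria, and 4.04 in G2, 4.54 in G4 and 3.75 in T2 of tibia, with overlap between the sites and a log2 difference of -0.36. In rat it was 0.113 in R1 and 0.108 in R3.

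TNFRSF11A encodes RANK, the receptor on the osteoclast lineage, and lies on chr1:105780718-105847981 of GRCm38, plus strand. In mouse it stood at 45.2 normalized CPM in M4 and 21.3 in M8 of calvaria, and at 34.3 in M5 and 31.7 in M7 of tibia. The tibia libraries lay between the calvaria libraries, and the log2 difference was 0.01 with an SE of 0.33 and an adjusted p of 0.996. The difference rested on which calvaria library was used, at -0.66 without M4 and 0.45 without M8. Each of these fits left a lone calvaria library. The summed osteoclast markers were also higher in M4 (4601 normalized CPM) than in M8 (2911), M5 (3080) and M7 (2771), with 0 of 12 called and 0 at an unadjusted p under 0.05 by edgeR's quasi-likelihood test. Their part in the value was not tested. In rat, TNFRSF11A stood at 14.7 CPM in R1 and 26.9 CPM in R3, a log2 ratio of -0.87, within the threshold. In macaque no row carried the symbol.

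CSF1 encodes M-CSF, the main ligand of CSF1R, and lies on chr3:107741048-107760469 of GRCm38, minus strand. In mouse it stood at 169 normalized CPM in M4 and 88.3 in M8 of calvaria, and at 139 in M5 and 149 in M7 of tibia. As with RANK, the calvaria libraries lay on either side of the tibia libraries. The log2 difference was -0.16 with an SE of 0.31 and an adjusted p of 0.896. Without M4 the difference was -0.73 and without M8 it was 0.23, each with a lone calvaria library. In rat, CSF1 stood at 102 CPM in R1 and 154 CPM in R3, a log2 ratio of -0.59, within the threshold. In macaque the CSF1 row was listed at 0 in all 6 libraries. Beta-actin (ACTB), which every cell uses, had between 0 and 3 reads per library in the same table, so a row at 0 there does not speak to expression.

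IL34 encodes the second ligand of CSF1R and lies on chr8:110741829-110805924 of GRCm38, minus strand. In mouse it stood at 4.10 normalized CPM in M4 and 3.81 in M8 of calvaria, and at 3.39 in M5 and 4.24 in M7 of tibia. The sites overlapped, with a log2 difference of 0.05, an SE of 0.47 and an adjusted p of 0.990. In rat it stood at 2.31 CPM in R1 and 6.29 CPM in R3, a log2 ratio of -1.42, past a threshold of 1 and within that of 2. In macaque no row carried the symbol.

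M-CSF outweighed IL-34 per kilobase of exon in every rodent library. The ratio of CSF1 to IL34 was 20.9 in M4 and 11.7 in M8, both calvaria of mouse, and 20.6 in M5 and 17.7 in M7, both tibia. These overlapped, with a log2 difference of site means of -0.29 and an exact permutation p of 1.0 (2-sided). In rat the ratio was 35.2 in R1 and 19.5 in R3, with exact 95% intervals from 24.9 to 51.3 and from 15.6 to 24.9.

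CSF1R encodes the receptor of both ligands and was the only member with reads in all 12 libraries whose site difference passed no threshold in any species. In mouse it stood at 138 normalized CPM in M4 and 116 in M8 of calvaria, and at 119 in M5 and 101 in M7 of tibia. The sites overlapped, with a log2 difference of 0.21, an SE of 0.26 and an adjusted p of 0.874. In macaque, calvaria held 52.7 in G1, 50.9 in G3 and 41.8 in T1, and tibia held 52.6 in G2, 49.4 in G4 and 71.2 in T2. These overlapped as well, with a log2 difference of -0.25, an SE of 0.20 and an adjusted p of 0.519. In rat it stood at 68.1 CPM in R1 and 74.0 CPM in R3, a log2 ratio of -0.12 that became 0.17 with TMM factors. A p above the threshold does not show that the sites had the same level.

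**Figure D3:**
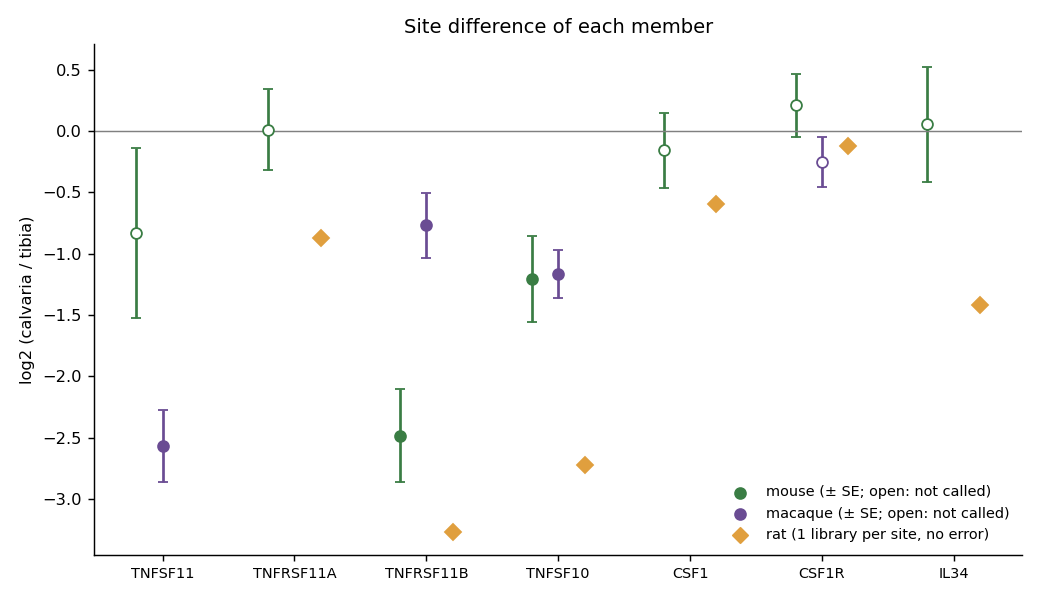
The log2 difference, calvaria over tibia, is plotted for each gene, with bars of ± 1 SE in mouse and macaque, filled where called and open where not, and with diamonds for the rat ratio, which has no error. TNFRSF11B and TNFSF10 lie below 0 in all 3 species, TNFSF11 lies at -2.57 in macaque and at -0.83 in mouse, and CSF1R lies near 0.

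Ordered by level per kilobase of exon in mouse tibia, CSF1 came first with a mean of 32.5 normalized CPM per kilobase, followed by CSF1R at 25.5, TNFRSF11B at 9.45, TNFRSF11A at 6.58, TNFSF10 at 2.66, IL34 at 1.71 and TNFSF11 at 1.36. The libraries of TNFSF11 (0.885 to 1.84) and IL34 (1.52 to 1.90) overlapped, and the other neighbours did not. In mouse calvaria CSF1R (29.4) and CSF1 (29.1), which overlapped, were followed by TNFRSF11A (6.62), and OPG stood at 1.68, so that IL34 (1.77), OPG, TRAIL (1.15) and RANKL (0.755) stood lowest, the libraries of each overlapping those of its neighbour. In macaque tibia TNFSF10 led at 48.9 normalized CPM per kilobase, and CSF1R (14.5), TNFSF11 (14.4) and TNFRSF11B (12.1) overlapped. In macaque calvaria TNFSF10 (21.8) and CSF1R (12.2) stood above TNFRSF11B (7.08) and TNFSF11 (2.42).

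**Figure D4:**
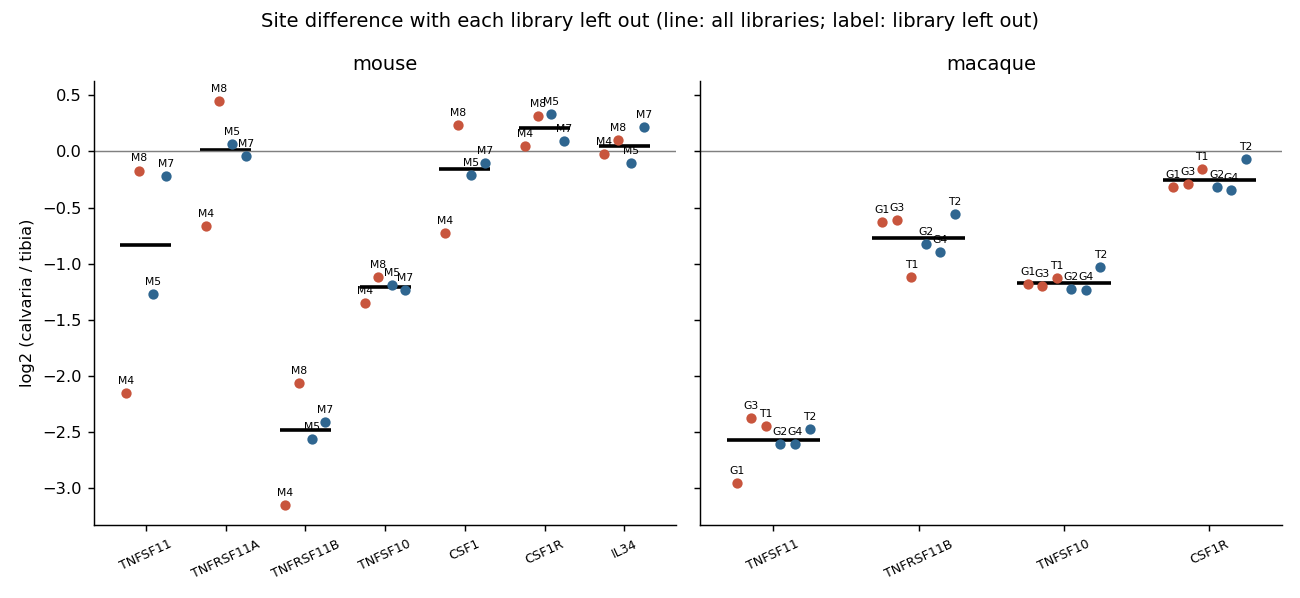
Black lines give the log2 difference, calvaria over tibia, with all libraries, and each point the same difference without 1 library, labelled by the library left out and coloured by its site. Macaque TNFSF11 (-2.96 to -2.37) and mouse TNFRSF11B (-3.15 to -2.06) stay far below 0, whereas mouse TNFSF11, TNFRSF11A and CSF1 move most when M4 or M8 is left out.

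The other genes of the pathways were read from lists of symbols. Of 22 genes of RANK signalling, 1 was called in mouse, beside 2.28% of all symbols. This was FOS, the AP-1 subunit needed for osteoclast formation, which was higher in calvaria (log2 difference 1.22, adjusted p 0.0758 by the quasi-likelihood test). In rat FOS was also the only 1 of 21 past the threshold, at 2.16, beside 9.69% of all symbols. In macaque 3 of 22 were called, beside 19.7% of all symbols. RELB (1.03, adjusted p 0.00302) and NFKB1 (0.49), both subunits of NF-kappaB, were higher in calvaria, and NFKBIA (-0.64), which encodes the inhibitor that holds NF-kappaB in the cytoplasm, was higher in tibia. The median over the list was 0.09 in mouse and -0.03 in macaque, near that of all symbols tested.

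Of the TRAIL receptors and the death signalling genes, 0 of 11 tested were called in mouse by edgeR's quasi-likelihood test, with 0 at an unadjusted p under 0.05. TNFRSF10A, a death receptor for TRAIL, was higher in macaque calvaria, at 24.6 normalized CPM against 7.20 in tibia (log2 difference 1.77, adjusted p 1.29e-05), the reverse of its ligand. In rat 1 of 9 with reads, TNFRSF10B, lay past the threshold towards tibia, beside 8.14% of all symbols. It stood at 0.0701 CPM in R1, below the 0.210 CPM that 3 reads give there, and at 0.736 CPM in R3.

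Of 15 genes of CSF1R signalling and alternative IL-34 receptors, 0 were called in mouse, with 0 at an unadjusted p under 0.05, and in macaque 3 were higher in calvaria and 4 in tibia, beside 10.3% and 9.43% of all symbols. SYK (2.01, adjusted p 5.27e-09) and TYROBP (1.29, adjusted p 3.25e-05), a kinase and an adaptor of myeloid cells, and PLCG2 (0.64) were higher in macaque calvaria. PTPRZ1, a receptor phosphatase that also binds IL-34, was higher in macaque tibia (-0.82, adjusted p 0.00156) and past the threshold in rat (-2.41), and MITF (-0.54), SOS1 (-0.43) and PIK3R1 (-0.51) were the other genes higher in macaque tibia. CSF1R itself was not called in macaque while the monocyte and macrophage markers rose in calvaria, with 7 of 11 called and a sum between 454 and 635 normalized CPM in calvaria and between 259 and 418 in tibia. CX3CR1, among these markers, was listed at 0 in macaque, and the part of these cells in the values was not tested.

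Among receptors and mediators known to act on RANKL and OPG, 1 of 20 tested was called in mouse, beside 2.28% of all symbols. In macaque 8 of 19 were called, beside 19.7%. ESR1, the oestrogen receptor, was higher in tibia in mouse (-1.06, adjusted p 0.157) and in macaque (-0.68, adjusted p 0.0146). In macaque NR3C1, the glucocorticoid receptor (-0.90, adjusted p 0.00141), LRP6, a Wnt co-receptor (-0.80, adjusted p 0.00748), WNT5A (-0.79), IL11RA (-0.53) and PTGER4 (-0.51) were also higher in tibia. PTGER2, a prostaglandin E2 receptor (1.13, adjusted p 0.00506), and PTGS2 (0.64), the inducible cyclooxygenase, were higher in macaque calvaria. The list's median was -0.13 in mouse, -0.28 in macaque and -0.43 in rat, beside 0.05, 0.03 and -0.29 over all symbols tested.

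Of the other ligands of the TNF superfamily, 0 of 12 tested were called in mouse by edgeR's quasi-likelihood test, with 2 at an unadjusted p under 0.05 (TNFSF13B and LTA). In macaque 2 of 9 were called, beside 19.7% of all symbols. LTB, lymphotoxin beta (1.64, adjusted p 5.58e-05), and TNFSF13B, the B cell factor BAFF (0.88, adjusted p 0.165), were both higher in macaque calvaria. In rat 0 of 11 lay past the threshold.

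Some markers of other cells differed between the sites beside these genes. Of all symbols, 0.712% in mouse and 10.3% in macaque were called higher in calvaria. The shares higher in tibia were 1.57% in mouse and 9.43% in macaque, and 8.14% past the threshold in rat. Neutrophil granule genes were higher in calvaria, with summed levels between 87952 and 116226 normalized CPM in mouse calvaria against 52757 to 60656 in tibia (2 of 6 called), and between 35570 and 59141 in macaque calvaria against 7012 to 13861 in tibia (4 of 5 called). Markers of marrow stroma and adipocytes were lower in mouse calvaria, between 1429 and 1608 against 3024 to 3382 in tibia (6 of 7 called), with PLIN1 at 0 in both calvaria libraries. In macaque their sum ran the other way, between 1803 and 2698 in calvaria against 788 to 1578 in tibia, with 3 of 7 called higher in calvaria and 2 in tibia. Chondrocyte markers were lower in mouse calvaria, between 18.8 and 86.6 against 578 to 693 in tibia (4 of 6 called), with MATN3 at 0 in both calvaria libraries, and were near 0 in macaque, at 5.82 to 11.9 over all libraries. In rat the summed skeletal muscle markers were 7.16 CPM in calvaria and 669 in tibia, all 6 past the threshold. Of the osteoblast markers 0 of 8 were called in mouse (0 at an unadjusted p under 0.05) and 2 of 7 in macaque, SP7 and RUNX2, both higher in tibia. Of the endothelial markers 2 of 6 in mouse and 1 of 6 in macaque were higher in tibia. The part of these cells in the differences of the members was not tested.

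**Figure D5:**
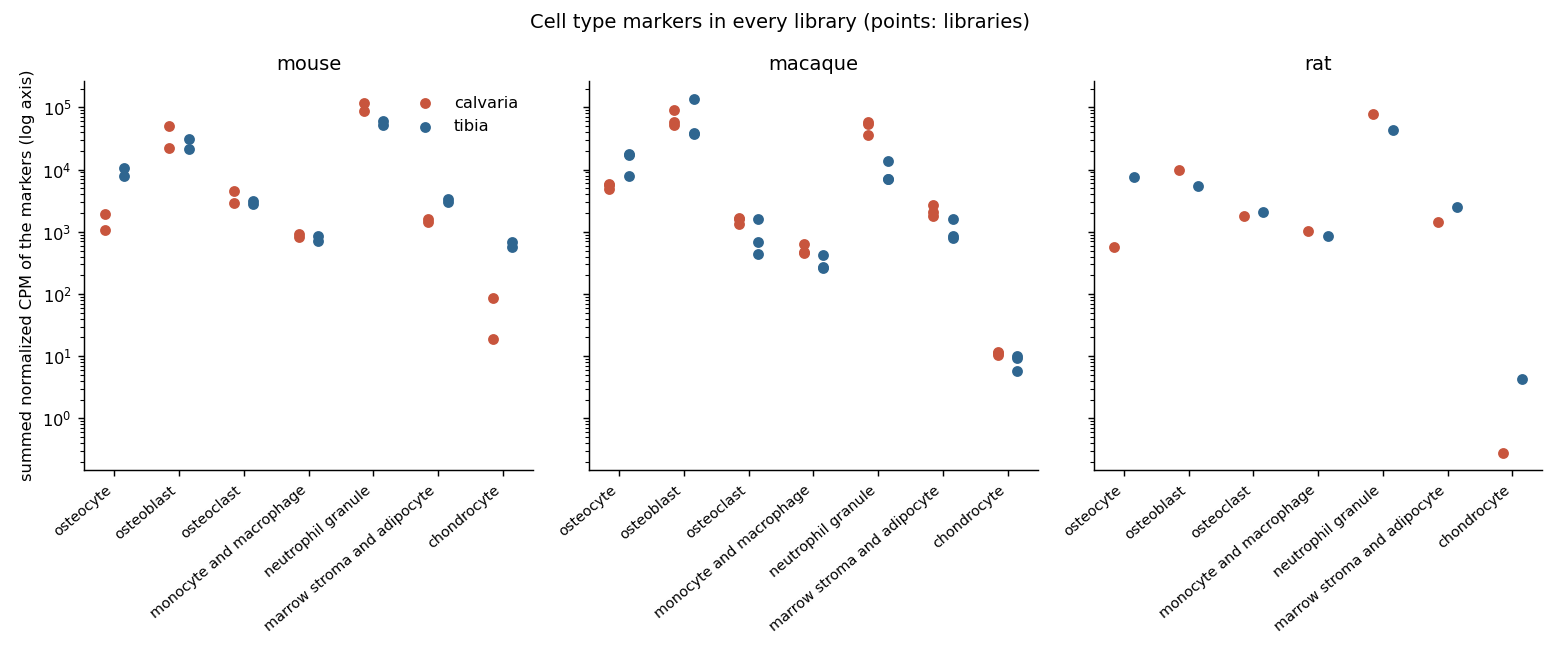
The summed level of the markers of each cell type is plotted on a log axis for every library, in normalized CPM (CPM in rat), coloured by site. Osteocyte markers are lower in calvaria in each species, neutrophil granule markers are higher in calvaria in each species, and chondrocyte markers are lower in calvaria in mouse, with 18.8 to 86.6 against 578 to 693.

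The genes whose levels ran most like each member across libraries are given as a description. For RANKL, over the 10 mouse and macaque libraries and 9241 symbols, these were PRICKLE2 (Pearson's r 0.977), HOXA2 (0.976) and PTPRZ1 (0.976). For OPG, over 12 libraries and 8264 symbols, they were SEMA3E (0.989), PRR15 (0.968) and SEMA5A (0.964). For TRAIL they were HOXC10 (0.985), GIMAP4 (0.984) and BTBD3 (0.980), and for CSF1R they were SEC16B (0.931), IFT20 (0.854) and TNFRSF1A (0.845). Among the members, RANKL and TRAIL ran together with r of 0.850, OPG and TRAIL with 0.824 and RANKL and OPG with 0.541, and CSF1R ran with RANKL at 0.448, with TRAIL at 0.330 and with OPG at 0.0328. Levels were centred within each species before r was taken, so differences in mean level between species were removed. The values share the same libraries, and differences between the sites weigh in them.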

How the data were processed

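RNA-seq of 12 libraries was analysed from the raw counts per gene that the authors deposited. Per the study's methods, reads were mapped with HISAT2 and counted with HTSeq-count on merged exons without strand. The submitters' processing notes list BWA 0.7.10-r789 instead, which could not be reconciled. Without strand, reads of overlapping antisense genes cannot be told apart from those of a gene. A normalized signal of the authors stands beside the counts, equals the count times 1 constant per library, and was not used.

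Rows without a gene name (between 0.0026% and 0.0663% of a library's reads) were left out, symbols were put in upper case and repeated symbols were summed. In macaque, 5937 of 17111 symbols beginning with LOC were named through the gene identifiers of a RefSeq table of a newer assembly, from which only names were taken. This was decided after the data were seen, and the members were not renamed. Mouse coordinates were read from GENCODE vM21 (GRCm38).

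Each of mouse and macaque had its own fit in edgeR 4.0.16 (R 4.3.3), with TMM factors, the quasi-likelihood test and Benjamini-Hochberg adjustment over all symbols with a read in some library. Standard errors were obtained from the log2 difference and its F statistic. The rat ratio used CPM after 1 read was added. The tests of the ratios within a library used log2 of reads per kilobase with 0.5 reads added. The exact permutation tests went through every arrangement of the site labels, and the exact binomial intervals were taken from scipy 1.17.1. The p-values of mouse measure the spread between pools. The quasi-likelihood fits of mouse and macaque and the interaction were tested on simulated data, and the other steps were not. DESeq2 1.42.0, other edgeR tests, scalings, symbol filters, thresholds, length offsets, blocks and fits without each library were the alternatives.

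The study's methods state that skull and long bone were paired without naming the pairs, so adjoining library numbers were assumed. Across genes, the deviations of macaque libraries from their site means had r of 0.211 (G1, G2), 0.293 (G3, G4) and 0.457 (T1, T2), and other combinations had -0.367 to 0.0895. In mouse this check is uninformative. The members, lists and tests were chosen with earlier results of these data known, and the text names all 7 members and, for the other lists, genes that were called, except for some results that are not reported here. The genes most like a member were the 3 with the highest Pearson's r. Pairs of genes may share reads with near-identical copies, which was not tested.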

Additional observations from a re-analysis of the deposited data

Results flagged for a closer look

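The site difference of TNFRSF11B (OPG) differed between mouse and macaque by the test of the interaction itself, with a log2 value of 1.73 (macaque minus mouse) and an adjusted p of 0.163 by edgeR's quasi-likelihood test, while 4.89% of all symbols were called. The call was lost without each of 8 of the 10 libraries.

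The site difference of the RANKL to OPG ratio lay in opposite directions in the species, with no overlap between the sites in either. It was 1.54 in mouse and -1.83 in macaque on the log2 scale, and the difference, macaque minus mouse, was -3.37. This difference was not tested, since it was singled out after the ratios of both species were seen. Species, lane, genome and annotation cannot be told apart here.

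A macaque row outside the comparisons, LOC100424175, is named TNFRSF11A (RANK) by the RefSeq table and held 7 reads in T2 and 3 in T1, while G1, G2, G3 and G4 held 0. The row that the table names IL34, LOC709034, held 0 reads in every macaque library.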

How the results depend on the processing

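Of 223 fitted log2 differences recomputed under the alternatives, 184 kept their direction and their side of the threshold, as did 21 of 24 rat ratios. Of 70 counts, 48 stayed within 1.5 times the count reported, and of 20 ratio differences within a library, 18 kept their sign and moved by less than the spread or, in rat, by under 0.5. Macaque TNFSF11 and TNFSF10 were called under every alternative that gave a value. TNFSF11, TNFRSF11A, CSF1 and IL34 gave none with symbols that had reads in all 3 species.

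In mouse 510 symbols were called, and smaller sets of symbols lowered this. Under edgeR's own expression filter 29 symbols and 0 members were called, with log2 differences of -2.48 for TNFRSF11B and -1.21 for TNFSF10. With reads in every library 14 symbols and 0 members were called (-2.48 and -1.21), and with symbols shared by all 3 species 32 symbols were called (-2.48 and -1.21). At an unadjusted p under 0.05 these settings of edgeR's quasi-likelihood test held 1215, 1256 and 788 symbols and 2 members. The log2 differences hardly moved, and adjusted p rose. At a false discovery rate under 0.05, 208 mouse symbols and 1 member were called (TNFSF10 at -1.21 was lost) and 1978 macaque symbols were called (TNFRSF11B at -0.77 was lost). The exonic length offset left 1 mouse member called, with TNFSF10 at -1.18.

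With the replicate block of adjoining library numbers, 295 mouse symbols and 1 member were called, TNFSF10 stood at -1.21 and TNFRSF11A at -0.085. With the other mouse pairing, 1 member was called, TNFSF10 stood at -1.21 and TNFRSF11A at -0.086. The pairing changed no macaque call of a member. With library size alone, mouse TNFRSF11A became -0.055 and IL34 -0.024. In rat, 5 reads added gave 690 symbols past the threshold in place of 1864 and TNFSF10 at -1.81, TMM factors gave CSF1R at 0.17, and a threshold of 1 gave 6072 symbols and IL34 at -1.42 past it.

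Without each library in turn, mouse symbols called ranged from 220 to 7470, lowest without M5 and highest without M4, 312 without M7 and 3816 without M8, and members called from 1 to 5. A lone library of a site is assumed there to vary like the other site. The mouse log2 differences ranged from -2.15 to -0.17 for TNFSF11, from -0.66 to 0.45 for TNFRSF11A, from -1.35 to -1.12 for TNFSF10, from -0.73 to 0.23 for CSF1 and from -0.10 to 0.22 for IL34. Macaque symbols called ranged from 2301 without G3 to 4998 without T2, and TNFRSF11B from -1.12 to -0.55. The interaction ranged from -2.41 to -0.46 for TNFSF11, from 1.28 to 2.35 for TNFRSF11B and from -0.061 to 0.19 for TNFSF10. The mouse CSF1 to IL34 difference ranged from -0.71 to 0.13. The causes of these moves were not tested.

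With 2 libraries a site in mouse and 3 in macaque, the exact tests of the ratios cannot pass 0.05 in either species alone. RANKL counts of 9 to 60 reads in mouse limit its precision, and rows at 0 in rat and macaque limit what can be said of RANKL and M-CSF there.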
